A study of Equus caballus with 6 samples.

Results

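MMP9, LTF, FCAR and TIMP1, 3 genes of neutrophils and the gene of a protease inhibitor, were measured in white blood cells of horses before and after exercise. Members were the probes outside the control set whose RefSeq transcript belongs to one of these 4 genes, which gave 4 of 870 named genes and 9 of 43603 probes: 1 for MMP9, 1 for LTF, 2 for FCAR and 5 for TIMP1. Leukocytes were taken from the buffy coat (the layer of white cells that forms over the red cells when blood is spun) of 3 warmblood geldings, and each horse gave 1 sample before and 1 after exercise (3 arrays per group). The horses carry the numbers 1, 2 and 4 and were 11, 7 and 15 years old per the labels, whereas the design text gives ages of 9 to 17 years, so horse 2 lies outside the stated span. Samples after exercise are marked 60 min in one label, while the protocol places both blood draws directly around the exercise, and the time of sampling is not settled here. No drug, diet or genotype is named for any sample, and the kind of exercise is not given in the sources used here.

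Neutrophils are short-lived phagocytes of the blood and carry granules that are filled while the cells mature in the bone marrow. MMP9 (gelatinase B) is a protease of the gelatinase granules that cuts denatured collagen and basement membrane, and LTF (lactoferrin) is an iron-binding antimicrobial protein of the specific granules. FCAR (CD89) is the receptor on neutrophils and other myeloid cells for the constant part of immunoglobulin A, and is a surface receptor more than a granule protein. TIMP1 is a secreted inhibitor of metalloproteinases that binds MMP9 among others and is made by monocytes, macrophages, stromal cells and platelets as well as by neutrophils. In a mixed sample of leukocytes, fewer cells of a type and less RNA per cell cannot be told apart.

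Between 64.1% and 69.4% of the non-control spots of an array were well above background, and no spot was saturated. The arrays lay on 2 slides: the samples of horses 1 and 2 before exercise on slide 2, the other 4 arrays on slide 1. The 75th percentile of the processed signal, to which each array was scaled, ran from 1124 to 2536, and was lower after exercise than before by 0.64 (log2) in horse 4 and by 0.18 in horse 2, and higher by 0.12 in horse 1. All 9 member probes were well above background on all 6 arrays, none was flagged as an outlier, and none lay in array column 1, which holds dark spots on the horse 4 array before exercise. A level below is the log2 processed signal minus the array's 75th percentile, and a change is the level after minus the level before exercise.

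MMP9 had small positive changes after exercise, of which that of horse 4 depended on the scaling, and its spread lay mainly between horse 2 and the other horses. Its level before exercise was 3.33 in horse 1, 2.52 in horse 2 and 3.34 in horse 4, and after exercise 3.47, 2.92 and 3.46 in the same order. The mean level was 3.06 ± 0.47 before and 3.29 ± 0.31 after exercise (SD, n = 3 each). Both groups overlap, since horse 2 after exercise lay below horses 1 and 4 before exercise. The changes within the horses were 0.15, 0.41 and 0.12, with a mean of 0.23 ± 0.16 (SD, n = 3 horses), or 1.17-fold. MMP9 did not pass the test (limma, SE 0.30, adjusted p = 0.999). Its direction in horse 4 hung on the scaling: the change there was -0.030 after quantile normalization and -0.52 without scaling. The mean turned to -0.046 without the array of horse 2 before exercise and to -0.0061 without scaling.

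LTF, the lactoferrin gene, varied most of the 4 genes and in opposite directions in the horses. Before exercise its level was 0.25 in horse 1, -0.92 in horse 2 and 2.60 in horse 4. After exercise it was 0.63, 1.33 and 1.44. The 3 values after exercise therefore lie within the range of those before exercise, and their SD was 0.44 against 1.79. The processed signal itself went from 1341 to 5646 in horse 2 and from 10612.0 to 3046 in horse 4. The changes were 0.38, 2.25 and -1.16 in horses 1, 2 and 4, with a mean of 0.49 ± 1.71 (SD, n = 3 horses), less than the spread between the horses (limma, SE 0.83, adjusted p = 0.999). The mean turned to -0.29 without the array of horse 2 before exercise and to -0.39 without both arrays of that horse. Horse 4, the only pair on a single slide, was the horse with the lower LTF level after exercise, and this change kept its sign under every scaling tried (-1.13 to -1.80).

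FCAR, the immunoglobulin A receptor, had the narrowest spread of the 4 genes by its brighter probe (SD over 6 arrays 0.18) but not by its dimmer one (0.43). The brighter probe had levels of 3.11, 2.80 and 2.95 before and of 3.01, 3.01 and 3.35 after exercise in horses 1, 2 and 4. The groups overlap, and horse 1 had the lower level after exercise. The sign in single horses hung on the processing: horse 1 had 0.074 after median centring, 0.035 with normexp and 0.026 without scaling, where horse 4 had -0.24. The changes were -0.093, 0.20 and 0.41, with a mean of 0.17 ± 0.25 (SD, n = 3 horses), and the test was not passed (limma, SE 0.20, adjusted p = 0.999). The dimmer probe gave changes of -0.033, 0.19 and 0.36, a mean of 0.17, so both probes order the horses alike. The probes differed in how far they set horse 2 apart: the dimmer one read 1.43 and 1.62 in horse 2 against 2.19 to 2.56 on the other 4 arrays, while the brighter one read 2.80 and 3.01 against 2.95 to 3.35. Over the 6 arrays the probes correlated with r = 0.80. The mean of the brighter probe was -0.060 without scaling. With array weights it was -0.023, a fit that leans on the array of horse 1 after exercise (weight 15.3, others 0.22 to 1.82).

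TIMP1, the metalloproteinase inhibitor, had nearly the same positive change in each horse under the 75th percentile scaling. Without scaling the change of horse 4 was -0.19. At the 75th percentile scaling TIMP1 lay higher in horse 4 than in the other horses, by more than its change after exercise. Its brightest probe read 4.75 in horse 1, 4.68 in horse 2 and 5.99 in horse 4 before exercise, and 5.24, 5.21 and 6.44 after exercise. Both arrays of horse 4 lay above the other 4 arrays, so the groups overlap although every horse had its higher value after exercise. The changes were 0.49, 0.53 and 0.45, with a mean of 0.49 ± 0.040 (SD, n = 3 horses), or 1.40-fold. The other 4 TIMP1 probes had mean changes from 0.50 to 0.58, and all 15 changes (5 probes in 3 horses) were above 0, from 0.45 to 0.65. Probes of one transcript on one array share the sample, so they measure the precision of the reading and not the spread between animals. Correlations between the 5 probes over the 6 arrays ran from 0.996 to 0.9998.

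**Figure D1:**
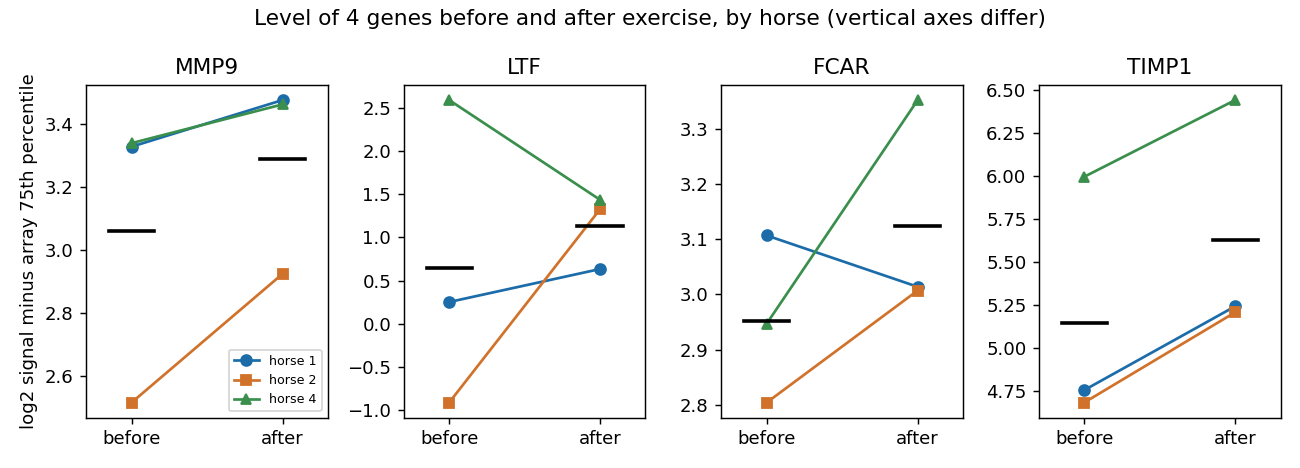
Level (log2 processed signal minus the array's 75th percentile) of the brightest probe of each gene before and after exercise; a line joins the 2 arrays of a horse and a black bar is the mean of 3 arrays. At this scaling TIMP1 runs parallel in the 3 horses (changes of 0.49, 0.53 and 0.45; -0.19 in horse 4 without scaling), while LTF was lower after exercise in horse 4 and higher in horses 1 and 2.

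**Figure D2:**
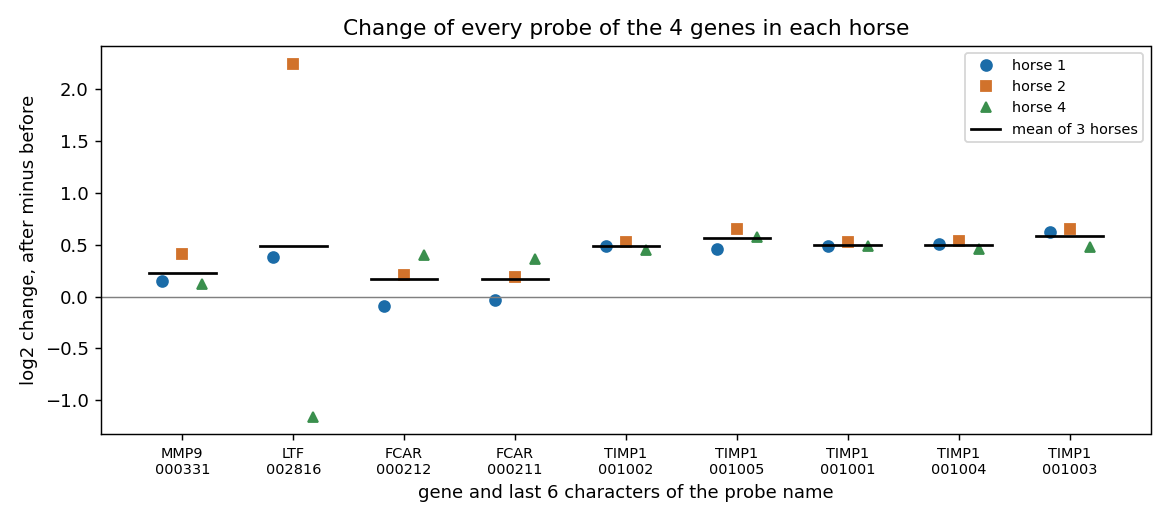
Change after exercise (log2, after minus before) of all 9 probes, with a symbol per horse and a black bar for the mean of 3 horses. Scaled to the 75th percentile, the 15 values of the TIMP1 probes lie between 0.45 and 0.65, and the FCAR probes give the same order of horses.

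The study set leukocyte transcripts after exercise against those before. Across all probes limma called 0 of 29570 (0%) at an adjusted p under 0.05 and 855 (2.89%) at an unadjusted p under 0.05, and none of the 9 member probes was in either count. The test sets 3 arrays against 3 and takes the difference between horses as error: the SE of the TIMP1 change was 0.48 (unadjusted p = 0.35, adjusted p = 0.999 in limma). Blocking on the horse, the SE of TIMP1 fell to 0.15, and its 5 probes had an unadjusted p from 0.014 to 0.025 and an adjusted p of 0.75 (limma). That fit called 0 of 29555 probes (0%), with 1792 (6.06%) below 0.05 before adjustment. MMP9, LTF and FCAR had an unadjusted p of 0.22, 0.50 and 0.38 in that fit. By the exact permutation test over the 20 splits of 6 arrays, two-sided, p was 0.5 for MMP9, 0.7 for LTF, 0.4 for FCAR and 0.5 for TIMP1, where 0.1 is the smallest possible. Changing the signs of the 3 paired changes gave an exact p of 0.25 for MMP9 and TIMP1, the smallest that 3 pairs allow, 0.5 for FCAR and 0.75 for LTF.

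Of the 4 genes, MMP9 and TIMP1 were higher in all 3 horses (not in horse 4 without scaling, nor MMP9 there after quantile normalization), and FCAR joined them after median centring and with normexp, so that which genes share the pattern depends on the processing. At the 75th percentile scaling it was a pattern that 17.3% of the 29351 probes measured on all arrays showed. A change of at least 0.4 in each horse was found in 189 probes (0.644%), of which 5 were the TIMP1 probes and 0 belonged to the other 3 genes. This level was set by rounding down the lowest change of the brightest TIMP1 probe. That probe therefore passes by construction, and the count does not set TIMP1 apart. The SD of the TIMP1 changes over horses, 0.040 by the brightest probe, was matched or undercut by 1.44% of probes, and the median SD was 0.33. Over the 5 TIMP1 probes the SD ran from 0.020 to 0.096. This share was computed for TIMP1 alone of the 4 genes, and against probes of all levels. Over all probes the change had a median of 0.021 in horse 1, 0.10 in horse 2 and 0.0042 in horse 4. No member had groups that do not overlap, as 1030 probes (3.51%) had with the higher values after exercise and 1116 (3.80%) with the lower.

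How even the TIMP1 changes were depended on the scaling. With each array centred on its median they were 0.65, 0.59 and 0.47 in horses 1, 2 and 4, and with normexp background correction 0.48, 0.53 and 0.42. Quantile normalization gave 0.42, 0.41 and 0.16. Without scaling they were 0.61, 0.35 and -0.19. The processed signal of the brightest probe, before any scaling, was 48425 before and 73755 after exercise in horse 1, 64999.6 and 82845 in horse 2, and 111656 and 97544 in horse 4. The lower value of horse 4 after exercise stands beside the 75th percentile of that array, which was lower by 0.64 (log2).

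**Figure D3:**
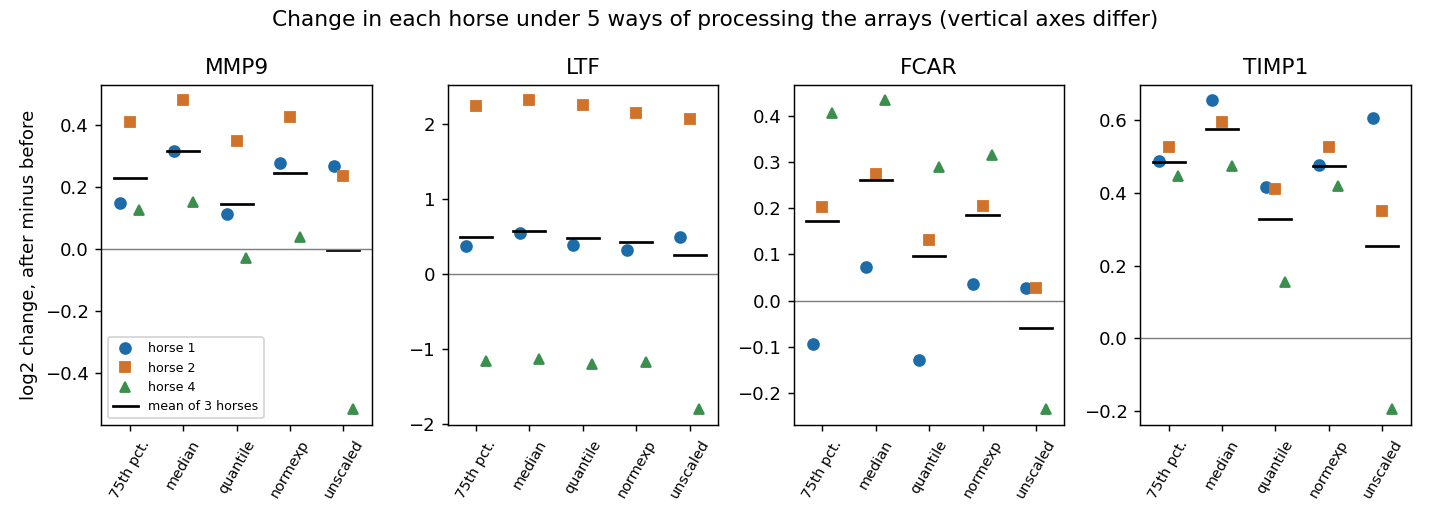
Change of the brightest probe of each gene (log2, after minus before) in each horse under 5 ways of processing the arrays, with a black bar for the mean of 3 horses. TIMP1 lay above 0 in all horses under 4 of the 5 settings and at -0.19 in horse 4 without scaling; LTF stayed below 0 in horse 4 throughout.

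A difference between 2 probes of one array does not depend on how the array is scaled by a single factor. MMP9 minus TIMP1 was lower after exercise by 0.34 in horse 1, 0.12 in horse 2 and 0.32 in horse 4, a mean change of -0.26 ± 0.12 (SD, n = 3 horses). FCAR minus TIMP1 was lower by 0.58, 0.32 and 0.040 in the same order, a mean of -0.31 ± 0.27. The changes of the MMP9 and FCAR probes were thus lower than that of the TIMP1 probe in each horse under scaling by a single factor. After quantile normalization, which is no single factor, FCAR had 0.29 and TIMP1 0.16 in horse 4, the opposite order. These differences describe unequal change and say nothing of whether either gene stayed the same. The paired exact p was 0.25 in both cases, again the smallest that 3 pairs allow. LTF minus TIMP1 had changes of -0.10, 1.72 and -1.61 in horses 1, 2 and 4, with no shared direction.

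Slide and exercise could be separated only through horse 4. The pairs of horses 1 and 2 each span slide 2 (before) and slide 1 (after), and their TIMP1 changes (0.49 and 0.53) therefore hold any difference between the slides. Within slide 1, horse 4 gave 0.45 for TIMP1, 0.12 for MMP9, 0.41 for FCAR and -1.16 for LTF. With slide as a block and no term for the horse, which sets the 3 arrays after exercise against the horse 4 array before exercise, the changes were -0.37 for TIMP1, -0.052 for MMP9, -1.46 for LTF and 0.18 for FCAR. None of the 4 passed (limma, adjusted p = 0.998 for each), and the TIMP1 value has the sign of the higher level of horse 4. With the horse and slide both as blocks the fit rests on the pair of horse 4 and returns its changes.

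The horses differed more in TIMP1 than the groups did. The mean TIMP1 level was 4.996 in horse 1, 4.94 in horse 2 and 6.22 in horse 4, a range of 1.27 against a change after exercise of 0.49. In rising order the arrays were horse 2 and horse 1 before exercise (0.072 apart), horse 2 and horse 1 after exercise (0.035 apart), then horse 4 before and after. The step up to horse 4 was 0.75, and with 1 array for each horse and time these gaps have no spread of their own. In limma's F-test between horses, with exercise in the model, TIMP1 did not pass (unadjusted p = 0.0021, adjusted p = 0.15), a test that called 70 of 29552 probes (0.237%) and put 4572 (15.5%) under 0.05 before adjustment. Both horse 4 arrays lay above the other 4 arrays for TIMP1 and for LTF, as they did for 16.6% of probes.

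MMP9 set horse 2 apart in place of horse 4. Its mean level was 3.40 in horse 1, 2.72 in horse 2 and 3.40 in horse 4 (limma F-test, unadjusted p = 0.031, adjusted p = 0.28), and both horse 2 arrays lay below the other 4, as for 13.9% of probes. Levels of MMP9 in horse 1 and horse 4 were 0.011 apart before and 0.014 apart after exercise. Before scaling, the processed signal of MMP9 was 14507 and 17047 in horse 2 and 12380 in horse 4 after exercise, so horse 2 was not the lowest. The range of the MMP9 horse means was 0.68 with scaling and 0.42 without (limma F-test without scaling, unadjusted p = 0.54). The dimmer FCAR probe had the same arrangement, with means of 2.24, 1.53 and 2.38 (unadjusted p = 0.021, adjusted p = 0.26 in limma), and the brighter FCAR probe did not, with 3.06, 2.91 and 3.15 (adjusted p = 0.75). LTF had means of 0.44, 0.21 and 2.02 in horses 1, 2 and 4 (limma F-test, adjusted p = 0.46). Each horse differs from the others in age too, and age and horse cannot be told apart.

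The 4 genes did not share one pattern over the 6 arrays. At the 75th percentile scaling all 4 had their lowest level on the array of horse 2 before exercise. That array had the highest 75th percentile (2536). In the processed signal before scaling only LTF was lowest there (1341). MMP9 (12380) and the brighter FCAR probe (11486) were then lowest in horse 4 after exercise, and TIMP1 (48425, brightest probe) in horse 1 before exercise. With the scaling, TIMP1 and FCAR were highest in horse 4 after exercise, LTF in horse 4 before exercise and MMP9 in horse 1 after exercise. Before scaling, TIMP1 was highest in horse 4 before exercise (111656) and FCAR in horse 2 after exercise (18056.5). As a description over 6 arrays of 3 horses, which are not 6 independent samples, Pearson's r was 0.78 for LTF and TIMP1, 0.69 for MMP9 and FCAR, 0.64 for FCAR and TIMP1, 0.59 for MMP9 and LTF, 0.58 for MMP9 and TIMP1 and 0.35 for LTF and FCAR. Values of this size were common: 14.6% of all probes had an r with TIMP1 at least as high as that of LTF, and 12.7% had an r with FCAR at least as high as that of MMP9. The median absolute r of all probes with TIMP1 was 0.59. Among 575 other named genes ranked by r with TIMP1, LTF stood at place 106, FCAR at 172 and MMP9 at 196. Leaving out the array of horse 2 before exercise changed r of MMP9 and LTF from 0.59 to -0.10 and r of LTF and FCAR from 0.35 to -0.21. Without scaling of the arrays r was -0.52 for FCAR and TIMP1, -0.27 for LTF and FCAR and -0.24 for MMP9 and TIMP1, and it stayed at 0.75 for LTF and TIMP1.

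**Figure D4:**
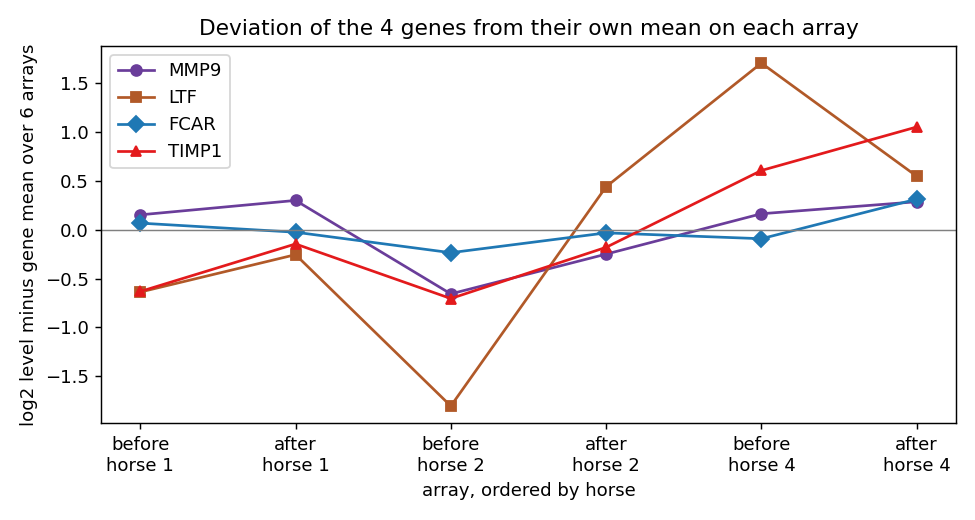
Level of each gene (log2, brightest probe) minus its mean over the 6 arrays, with the arrays ordered by horse. All 4 genes are lowest on the array of horse 2 before exercise; LTF peaks in horse 4 before exercise, TIMP1 and FCAR in horse 4 after exercise and MMP9 in horse 1 after exercise.

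For each member, the 5 named genes with the highest r over the 6 arrays were picked out of 575. Their r was above that between members, as such a choice favours. For TIMP1 the 5 highest values of r were those of RNASEH2C, a subunit of ribonuclease H2 (0.99), the ferritin light chain FTL (0.99), the cytochrome CYB5A (0.98), the DNA-sensing receptor TLR9 (0.98) and the malate dehydrogenase MDH2 (0.98). These genes were chosen for the likeness, so that they share the order of TIMP1 is no result. FTL had changes of 0.30, 0.23 and 0.19 in horses 1, 2 and 4, and without scaling all 5 genes were below 0 in horse 4 (-0.064 to -0.55). For LTF they were DDIT4, a stress-induced inhibitor of mTOR signalling (0.99), the GTPase activator RANGAP1, the transporter ABCC1, the lactate transporter SLC16A3 and the locus LOC100630360 (each 0.98). DDIT4 had changes of 0.45, 1.20 and -0.55. For MMP9 they were CD1A5, an antigen-presenting molecule (0.98), LOC100052249 (0.98), the serotonin transporter SLC6A4 (0.97), the chemokine CCL3 (0.97) and MHCX1 (0.96). For FCAR they were the ribosomal protein genes RPLP2 (0.96), RPLP0 (0.95) and RPL35A (0.93), B2M, the light chain of class I histocompatibility molecules (0.95), and DNASE1 (0.93), whose probe was well above background on 3 of the 6 arrays.

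Few other genes of these pathways could be named on the array. Of 54 listed neutrophil genes 5 were measured, and 3 of these are MMP9, LTF and FCAR, so the neutrophil label could not be checked against an independent set of markers. The others were SERPINB1, an inhibitor of the serine proteases of primary granules, and CRISP3, a protein of specific granules. SERPINB1 had a change of 0.019 (-0.17, 0.082 and 0.14 in horses 1, 2 and 4), and CRISP3 -0.023 (-0.43, 0.043 and 0.32). CRISP3 was dim, with a mean level of -4.96 over the 6 arrays against 0.89 for LTF, though well above background on all 6. None of the 5 was called (0%) or had an unadjusted p under 0.05 in limma. Of 28 metalloproteinases and inhibitors listed, 7 were named on the array and 3 were measured (MMP9, TIMP1 and MMP1), with a median change of 0.23. MMP1, an interstitial collagenase, had a change of -0.032 by its brightest probe, and its 8 probes ran from -0.060 to 0.25. MMP3, MMP13, ADAMTS4 and TIMP3 were well above background on at most 2 of the 6 arrays and were not tested.

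The iron-handling and Fc receptor genes gave no call either. Of 12 iron genes 4 were measured, with a median change of 0.33: besides LTF they were FTL (0.24), the ferritin heavy chain FTH1 (0.23) and the phagosomal metal transporter SLC11A1 (0.41). At the 75th percentile scaling the ferritin genes were higher in all 3 horses (FTL at -0.45 in horse 4 without scaling), and SLC11A1 had changes of 0.63, -0.18 and 0.78. Of 12 Fc receptor genes 3 were measured, with a median change of 0.10: FCAR, FCER1A, a chain of the high-affinity immunoglobulin E receptor (0.10), and FCER2, the low-affinity one (0.089). FCER1A had the same signs in the horses as the brighter FCAR probe, with -0.48, 0.13 and 0.65 in horses 1, 2 and 4.

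Markers of other blood cells were present on all 6 arrays, and of their lists only the haemoglobin genes had a median change above 0 in all 3 horses, which without scaling no list had (haemoglobin at -0.40 in horse 4). The 6 measured of 12 monocyte genes had a median change of 0.059, with 0.21, 0.080 and -0.13 in horses 1, 2 and 4. Single genes of the list differed in sign. CD14, the monocyte coreceptor for endotoxin, had 0.79, 0.84 and -0.77, CSF1R 0.26, 0.22 and -0.28, and ITGAX 0.12, 0.87 and -0.84. In contrast, CD68 had 0.76, -0.44 and 0.48, CCR2 0.11, -0.062 and 0.10, and S100A10 0.15, -0.31 and 0.031. The mean level of this list ran from -0.18 to 0.42 before and from 0.0048 to 0.68 after exercise. The haemoglobin genes HBA2 and HBB, 2 of 9 erythroid genes listed, had median changes of 0.91, 2.48 and 0.24 in horses 1, 2 and 4 at the 75th percentile scaling. Their mean level was lowest in horse 2 (1.27 before and 3.75 after exercise), then in horse 1 (5.53 and 6.44), and highest in horse 4 (7.67 and 7.91). TIMP1 was highest in horse 4 too (mean 6.22), but nearly equal in horses 1 and 2 (means of 4.996 and 4.94). The part of red cell RNA in the TIMP1 values was not tested.

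The remaining marker lists had small median changes. These were 0.081 for 3 of 12 T cell genes, -0.11 for 3 of 10 B cell genes, 0.15 for 6 of 11 NK and cytotoxic genes, 0.22 for 3 of 9 platelet genes and 0.13 for 2 of 10 eosinophil and basophil genes. T cell genes had medians of 0.23, 0.75 and -0.47 in horses 1, 2 and 4 and NK and cytotoxic genes 0.36, 0.49 and -0.42. By these medians horse 4 had the sign opposite to that of horses 1 and 2 in both lists, as LTF did. By their brightest probes CD2, CD28, CCL5, FASLG, GZMB and KLRD1 had these signs. The other measured genes did not: GNLY had 0.80, 0.57 and 0.38, NCR1 -0.44, 0.16 and -0.63, and IL7R -0.063, 0.77 and -0.74. Over all 31 list genes outside the 4 members, the median change was 0.093, against 0.044 over all probes. At this scaling 5 were higher and 2 lower in all 3 horses, as were 17.3% and 11.5% of the probes measured on all arrays. By the brightest probe 0 were called (0%) or had an unadjusted p under 0.05 in limma, against 0% and 2.89% of all probes. ITGAX, an integrin of the monocyte list, was singled out after its values were seen. It had a change of 0.050 by its brightest probe. Its dimmest 2 of 7 probes had -1.94 and -1.39 (unadjusted p = 0.036 and 0.0496, adjusted p = 0.999 in limma). In horses 1, 2 and 4 the first of these had -2.86, -2.84 and -0.13, and the second -2.05, -2.20 and 0.064. The pairs of horses 1 and 2 span the 2 slides, and that of horse 4 does not. The part of the slide in these values was not tested. How far shifts in the mix of cells enter the LTF values was not tested.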

How the data were processed

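Each deposited file holds the spots of 1 Cy3 array extracted by version 10.10.1.1 of Agilent Feature Extraction under protocol GE1_1100_Jul11, per the file headers. The processed signal is an intensity, background-subtracted within the array and not normalized between arrays, per the file headers; the deposited flags for well above background and outliers are other values of 0 or 1. Signals were put on the log2 scale and set relative to the 75th percentile of the array's non-control spots. Flagged spots (67 to 169 per array) were left out, spots of a probe averaged, and probes kept where well above background on at least 3 of 6 arrays (29571 of 43603). The number of arrays limits the precision. Depth does not apply to arrays.

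Probes were named by RefSeq accession, without versions, through a table of the assembly TB-T2T (1979 probes, 870 genes). The array design names another build, so no coordinates are given, and no probe or protein sequence was used here. Each gene is represented by the brightest of its kept probes. Groups were compared over all probes with limma 3.58.1 (lmFit, eBayes) under R 4.3.3 (two-sided, Benjamini-Hochberg, threshold 0.05) without the horse as a block, and horses with its F-test. Errors called SE are limma's moderated standard errors. Fits were tested on simulated data whose noise was independent between arrays. These data lacked the pairing and the slides of the real arrays, so they cannot show how the fits deal with either.

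The horse number in the titles pairs the samples of an animal; same-numbered arrays deviated together from their group means (r = 0.36, 0.40 and 0.23 across probes). Members and gene lists (neutrophil, metalloproteinase, iron, Fc receptor and blood cell markers) were chosen with earlier results of these data known. Genes named are the 4 members, the measured members of the lists, and for each member the 5 named genes with the highest r. Alternatives were normexp (offset 50, on the median spot signal, since the mean signal was not used here), quantile and median scaling, filters, flagged spots kept, slide 1 alone, blocks for slide and horse, weighted arrays, trended robust variance, single probes and their mean, and each array or horse left out. No scaling, and leaving out the dark first column, were chosen after seeing the data.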

Additional observations from a re-analysis of the deposited data

How the results depend on the processing

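The study has 3 arrays in a group, and exercise, slide and horse are separated only by the pair of horse 4. None of the 4 genes passed the threshold under any of the alternatives run (limma, adjusted p from 0.18 to 1.0 over them), and the replicate block changed no call: with the horse as a block 0 probes were called. The count of probes called was 131 with slide as a block, 118 with the replicate block and slide together, 122 in slide 1 alone and 1638 with array weights; over the fits that left out an array or a horse it ran from 0 to 595, with 595 without the horse 4 array before exercise and 20 without horse 4. With slide as a block and in slide 1 alone the changes were -0.052 for MMP9, -1.46 for LTF and -0.37 for TIMP1, and with horse and slide as blocks -1.16 for LTF. Array weights gave -0.023 for FCAR, and no scaling gave -0.0061 for MMP9 and -0.060 for FCAR. The weight was 15.3 for the array of horse 1 after exercise and 0.22 to 1.82 for the others. The weighted changes and the 1638 calls therefore lean on that array. Leaving out an array or a horse gave -0.046 to 0.41 for MMP9, -0.39 to 1.47 for LTF, 0.055 to 0.30 for FCAR and 0.081 to 0.91 for TIMP1, the extremes of TIMP1 without the horse 4 array after and before exercise. The cause of these shifts was not tested.

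Probes called between horses numbered 1 after quantile normalization, 1 with slide as a block, 1 with flagged spots kept, 476 without scaling and 0 to 466 with an array left out. The r over arrays moved under quantile normalization to 0.43 (MMP9 and FCAR), 0.36 (MMP9 and TIMP1) and 0.23 (FCAR and TIMP1). Without scaling it was 0.25 (MMP9 and LTF), 0.42 (MMP9 and FCAR), -0.24 (MMP9 and TIMP1), -0.27 (LTF and FCAR) and -0.52 (FCAR and TIMP1). With an array left out it ran from -0.10 to 0.70 (MMP9 and LTF), 0.39 to 0.78 (MMP9 and FCAR), 0.35 to 0.76 (MMP9 and TIMP1), -0.21 to 0.76 (LTF and FCAR), 0.71 to 0.94 (LTF and TIMP1) and 0.041 to 0.84 (FCAR and TIMP1).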
